A study of Mus musculus with 24 samples.

Results

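The neurotrophins and their receptors were described across 4 subpopulations of mouse mammary basal cells. The genes were Ntf3 (neurotrophin-3), Ntf5 (neurotrophin-5, also called neurotrophin-4), Bdnf (brain-derived neurotrophic factor), Ntrk2 (the receptor TrkB), Ntrk3 (the receptor TrkC) and Ngfr (the receptor p75NTR). They were found by their Entrez identifiers and made up 6 of the 27080 genes counted. The group was selected on measured values of these data, since the H3K27me3 difference of Ntf3 between Tspan8hi and Tspan8- cells was known when it was proposed. Values of that comparison are therefore given for these 6 genes as a description, without a test.

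Neurotrophins are secreted growth factors best known for keeping neurons alive. Each mature factor binds a preferred Trk receptor tyrosine kinase, TrkB for brain-derived neurotrophic factor and neurotrophin-5, and TrkC for neurotrophin-3, while p75NTR binds them all and also their uncleaved precursors. In the mammary gland p75NTR is known as a protein of the basal, myoepithelial layer. The marks measured were trimethylation of histone H3 at lysine 4 (H3K4me3), which sits at the starts of active or poised genes, and at lysine 27 (H3K27me3), which Polycomb complexes lay down over silent genes.

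The cells were basal cells sorted by flow cytometry from mammary glands of untreated C57BL/6 females, whose age the labels do not give. The 4 subpopulations were Lgr5+Tspan8hi, Lgr5+Tspan8-, Lgr5-Tspan8hi and Lgr5-Tspan8-, with Lgr5 a receptor of the Wnt pathway and Tspan8 a tetraspanin of the cell surface. Each had 2 chromatin immunoprecipitation (ChIP-seq) libraries per mark, 16 in all. Nothing in the labels says whether a pair came from separate animals, how many animals were pooled or what reported Lgr5, so p-values measure the spread between these libraries, which may be technical.

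Levels are given in CPM, read counts scaled to library totals adjusted by TMM factors. The counted region was read from the counts themselves. For H3K4me3, neighbouring genes whose starts lay less than 2000 bp apart had nearly equal counts (median ratio 1.02 over 1953 pairs, against 2.64 over 1357 pairs with starts 4000 to 10000 bp apart), so the value of a gene describes the surroundings of a start. For H3K27me3 the same kind of neighbours differed by a median ratio of 4.34, and counts grew with gene length (Spearman's rho across genes 0.797, against 0.349 for H3K4me3). H3K27me3 levels of different genes are therefore compared per kb of gene. Which start was counted for a gene with several is not given in the sources used here.

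Ntf3 lies at chr6:126101412-126166772 on the minus strand (GRCm38, the mm10 build), Ntf5 at chr7:45413695-45417179 on the plus strand, and Bdnf at chr2:109674700-109727043 on the plus strand. Ntrk2 spans chr13:58806472-59133970 on the plus strand, Ntrk3 spans chr7:78179986-78581034 on the minus strand, and Ngfr spans chr11:95568818-95587698 on the minus strand. None of the 6 had another gene's start within 2000 bp. Ntrk2 and Ntrk3 overlap the predicted genes Gm53063 and Gm39038, and reads in the shared stretches cannot be told apart.

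RefSeq promoter windows (GRCm38.p6, 250 bases before to 50 after a start) were found for 4 of the 6 genes, Ntf3 with 2 starts, Bdnf with 7, and Ntrk2 and Ngfr with 1 each. They are shown because H3K4me3 and Polycomb-bound genes are both known to favour CpG-rich starts. For Bdnf, 2 of the 7 starts are shown, the outermost one (start 1) and the one whose window held a motif searched for (start 3). The lines below give bases upstream of these starts and outside annotated exons (start 2 of Ntf3 and start 3 of Bdnf lie inside the span of their gene), 5′ to 3′ on the gene's strand, with each CpG in capitals:
Ntf3 start 1, chr6:126166773-126166994: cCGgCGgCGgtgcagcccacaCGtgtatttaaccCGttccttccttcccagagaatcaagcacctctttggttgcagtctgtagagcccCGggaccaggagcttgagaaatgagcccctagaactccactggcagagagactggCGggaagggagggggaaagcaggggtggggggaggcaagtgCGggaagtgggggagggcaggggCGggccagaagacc
Ntf3 start 2, chr6:126164961-126165210: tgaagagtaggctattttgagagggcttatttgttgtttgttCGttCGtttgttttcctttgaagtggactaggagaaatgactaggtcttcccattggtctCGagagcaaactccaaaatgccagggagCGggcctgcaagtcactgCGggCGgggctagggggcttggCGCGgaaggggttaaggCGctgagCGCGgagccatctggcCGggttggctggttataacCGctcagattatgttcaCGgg
Bdnf start 1, chr2:109674450-109674699: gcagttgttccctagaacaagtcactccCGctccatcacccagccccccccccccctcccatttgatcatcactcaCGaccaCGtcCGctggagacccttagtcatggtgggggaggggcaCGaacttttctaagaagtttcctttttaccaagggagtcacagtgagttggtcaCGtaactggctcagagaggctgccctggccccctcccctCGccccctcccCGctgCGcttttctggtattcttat
Bdnf start 3, chr2:109692186-109692435: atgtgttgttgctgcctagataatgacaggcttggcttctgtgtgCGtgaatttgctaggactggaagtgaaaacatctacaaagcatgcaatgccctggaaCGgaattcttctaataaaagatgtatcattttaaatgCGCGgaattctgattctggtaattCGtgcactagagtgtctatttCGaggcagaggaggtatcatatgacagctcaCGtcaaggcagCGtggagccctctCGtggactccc
Ntrk2 start, chr13:58806319-58806471: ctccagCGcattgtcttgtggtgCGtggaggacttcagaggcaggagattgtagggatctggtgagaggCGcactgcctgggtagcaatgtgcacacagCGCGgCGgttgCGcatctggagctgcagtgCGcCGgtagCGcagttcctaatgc
Ngfr start, chr11:95587699-95587948: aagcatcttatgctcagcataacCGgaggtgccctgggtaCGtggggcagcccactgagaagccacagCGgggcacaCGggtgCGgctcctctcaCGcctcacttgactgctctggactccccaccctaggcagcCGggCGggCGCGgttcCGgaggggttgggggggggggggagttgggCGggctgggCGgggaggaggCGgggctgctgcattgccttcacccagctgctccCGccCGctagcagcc

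The full windows of 300 bases held 12 and 17 CpGs at the starts of Ntf3, and 23 each at Ntrk2 and Ngfr, against a median of 7 over 32851 windows. Ntrk2 and Ngfr thus stood at percentile 78.5 of all windows for CpG count. The 7 windows of Bdnf ranged from 2 to 13 CpGs, with 11 at start 1 and 12 at start 3. Of 5 motifs searched on both strands, the TCF/LEF core CTTTGA was found in the second Ntf3 window (16% of all windows hold it), and the cyclic AMP response element half-site TGACG in the third Bdnf window (20.8%). The full element TGACGTCA, which contains that half-site, the EGR motif GCGTGGGCG and the TATA box TATAAA were in none of the 11 windows and in 1.79%, 0.612% and 13.6% of all windows.

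Total counts per library ran from 1472251 to 4740371 for H3K4me3 and from 2639862 to 6972189 for H3K27me3. For their totals, Tspan8hi libraries reached fewer genes than Tspan8- libraries. The share of a library's total that would leave as many genes at 0, were reads independent, was 34.6% ± 12.9 in Tspan8hi and 79.3% ± 20.4 in Tspan8- H3K4me3 libraries, and 54.1% ± 15.5 and 75.9% ± 3.51 for H3K27me3 (SD, n = 4 each). The exact two-sided permutation p was 0.0286 for both marks, the smallest that 70 arrangements allow, and its part in the results below was not tested. The first Lgr5-Tspan8hi library stood lowest for both marks, at 17.2% and 31.1%. The H3K27me3 differences of Ntf3 and Ntrk2 with Tspan8, and a call at Sorcs1 described below, are also given without it. It was not singled out for the other results of the 6 genes. H3K4me3 at Tspan8 itself was 79.9 ± 8.79 CPM in Tspan8hi against 24.9 ± 4.13 CPM in Tspan8- libraries (SD, n = 4 each), a log2 difference of 1.68 ± 0.18 (SE) that passed edgeR's quasi-likelihood test after Benjamini-Hochberg adjustment. At the Lgr5 gene, mean H3K4me3 was 87.1 CPM with the Lgr5+ label and 69.2 CPM with the Lgr5- label; this log2 difference, 0.32, missed the threshold (edgeR adjusted p = 0.961). Its H3K27me3 was 60.1 to 112 CPM in Lgr5+ and 96.3 to 162 CPM in Lgr5- libraries, overlapping through the first Lgr5+Tspan8hi library, and the log2 difference of -0.72 missed the threshold too (edgeR adjusted p = 0.0537). Among cell type markers, the median H3K4me3 level was highest over 8 basal markers, at 105 CPM, and lowest over 6 immune markers, at 1.92 CPM. In between were luminal (34.3 CPM), fibroblast (30.8), pericyte (23.85), neuronal (17.7), Schwann and glial (15.7), endothelial (7.68) and adipocyte markers (3.55). No marker was at 0 in all libraries, and the share of other cell types among the sorted cells was not tested. The lowest basal marker was Trp63, a gene with several starts, at 1.76 CPM.

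Of the ligands, Ntf3 carried more H3K27me3 in Tspan8hi than in Tspan8- cells. Its level was 94.8 and 101 CPM in the Lgr5+Tspan8hi libraries, 82.6 and 82.3 CPM in Lgr5-Tspan8hi, 62.4 and 57.0 CPM in Lgr5+Tspan8-, and 57.2 and 37.9 CPM in Lgr5-Tspan8-. All 4 Tspan8hi libraries thus lay above all 4 Tspan8- libraries, with means of 90.2 ± 9.24 and 53.6 ± 10.8 CPM (SD, n = 4 each) and a log2 difference of 0.76. The difference was present in both Lgr5 states, 1.64-fold among Lgr5+ and 1.74-fold among Lgr5- libraries. Without the first Lgr5-Tspan8hi library the log2 difference was 0.75. H3K27me3 summed over the 6 immune markers also lay apart, at 379 to 400.4 CPM in Tspan8hi and 406 to 429.7 CPM in Tspan8- libraries, and its part in the Tspan8 differences was not tested. In sorted cells taken in bulk, more cells with the mark and more of the mark per cell cannot be told apart. In the order of the 4 subpopulations, the neighbours Lgr5+Tspan8- and Lgr5-Tspan8- overlapped, while the others were apart.

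H3K4me3 at Ntf3 was highest where its H3K27me3 was lowest, and lowest where that was highest, with the 2 subpopulations between in the same order. It was 32.3 and 25.7 CPM in Lgr5-Tspan8-, 18.9 and 18.7 CPM in Lgr5-Tspan8hi, 12.6 and 21.7 CPM in Lgr5+Tspan8-, and 17.8 and 13.6 CPM in Lgr5+Tspan8hi libraries. Both Lgr5-Tspan8- libraries were above the other 6. Among those, Lgr5+Tspan8- overlapped with both Tspan8hi subpopulations, while the Lgr5+Tspan8hi libraries lay below the Lgr5-Tspan8hi ones. These values rest on 32 to 123 reads per library. The same 2 Lgr5-Tspan8- libraries had the highest summed H3K4me3 over 7 fibroblast markers, 248 to 249.6 CPM against 151 to 202 CPM in the other 6, and the part of this in the Ntf3 level was not tested.

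Bdnf, made from several alternative starts, followed Ntf3 in the order of its H3K27me3 levels. Its H3K27me3 was 89.4 and 81.7 CPM in Lgr5+Tspan8hi, 83.8 and 71.2 CPM in Lgr5-Tspan8hi, 71.5 and 63.4 CPM in Lgr5+Tspan8-, and 66.8 and 47.2 CPM in Lgr5-Tspan8- libraries. The lowest Tspan8hi library fell just below the highest Tspan8- library, so the groups overlapped, with means of 81.5 ± 7.61 and 62.2 ± 10.6 CPM (SD, n = 4 each) and a log2 difference of 0.39. Each subpopulation overlapped with its neighbour in the order, and within each the first library was above the second. H3K4me3 at Bdnf was low and scattered, from 8.66 CPM in the second Lgr5+Tspan8hi to 22.6 CPM in the second Lgr5-Tspan8hi library. The other library of that last pair was at 9.02 CPM, and no neighbouring subpopulations were apart.

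Ntf5 differed from the other ligands in both marks. It is a gene of 3.485 kb, and its H3K27me3 counts were only 3 to 28 reads per library. The levels were 4.64 and 3.72 CPM in Lgr5+Tspan8hi, 2.18 and 0.58 CPM in Lgr5+Tspan8-, 1.5 and 2.62 CPM in Lgr5-Tspan8hi, and 3.92 and 2.84 CPM in Lgr5-Tspan8- libraries. Tspan8hi libraries were thus the higher ones among Lgr5+ cells and the lower ones among Lgr5- cells. H3K4me3 at Ntf5 stayed between 44.7 and 69.4 CPM in the 8 libraries, highest in the 2 Lgr5-Tspan8hi libraries at 69.4 and 65.1 CPM.

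Of the Trk receptors, Ntrk2 was the 1 of the 6 genes with less H3K27me3 in Tspan8hi cells when both Lgr5 states were averaged. Its H3K27me3 was 431 and 453 CPM in Lgr5+Tspan8hi, 476 and 501 CPM in Lgr5-Tspan8hi, 515 and 577 CPM in Lgr5+Tspan8-, and 521 and 601 CPM in Lgr5-Tspan8- libraries. All 4 Tspan8hi libraries lay below all 4 Tspan8- libraries, with means of 465 ± 30.1 and 554 ± 42.2 CPM (SD, n = 4 each) and a log2 difference of -0.25, also without the first Lgr5-Tspan8hi library. The order of the subpopulations was the reverse of that of Ntf3 and Bdnf. Only the Tspan8- subpopulations overlapped. H3K4me3 at Ntrk2 ranged from 33.9 to 60.8 CPM, with both extremes in Tspan8- libraries and every neighbouring subpopulation overlapping. In Lgr5- cells both Tspan8- libraries, at 49.0 and 60.8 CPM, were above the Tspan8hi ones, at 43.7 and 48.7 CPM.

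Ntrk3, the receptor of neurotrophin-3, had H3K27me3 levels of 305 and 257 CPM in Lgr5+Tspan8hi, 271 and 225 CPM in Lgr5-Tspan8hi, 226 and 170.1 CPM in Lgr5-Tspan8-, and 188 CPM in both Lgr5+Tspan8- libraries. The Tspan8hi mean of 265 ± 33.5 CPM stood against 193 ± 23.6 CPM (SD, n = 4 each), a log2 difference of 0.45, and 1 library of each group overlapped. The fold was 1.49 among Lgr5+ libraries, which were apart, and 1.25 among Lgr5- libraries, which overlapped. H3K4me3 at Ntrk3 was between 69.5 and 103 CPM, and in Lgr5- cells both Tspan8- libraries, at 91.2 and 103 CPM, were above the Tspan8hi ones, at 89.7 and 70.2 CPM.

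Ngfr, the p75NTR gene, had its highest H3K27me3 in Lgr5+Tspan8hi cells. The levels were 47.6 and 31.5 CPM there, 27 and 27.3 CPM in Lgr5-Tspan8hi, 29.7 and 22.2 CPM in Lgr5+Tspan8-, and 30.4 and 19.6 CPM in Lgr5-Tspan8- libraries. Both Lgr5+Tspan8hi libraries stood above the other 6, the second by a small margin, and the remaining 3 subpopulations overlapped. The log2 difference with Tspan8 was 0.37, and it came to 1.52-fold among Lgr5+ and 1.09-fold among Lgr5- libraries. H3K4me3 at Ngfr was 29.3 to 49.1 CPM, both extremes coming from the Lgr5-Tspan8hi pair.

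**Figure D1:**
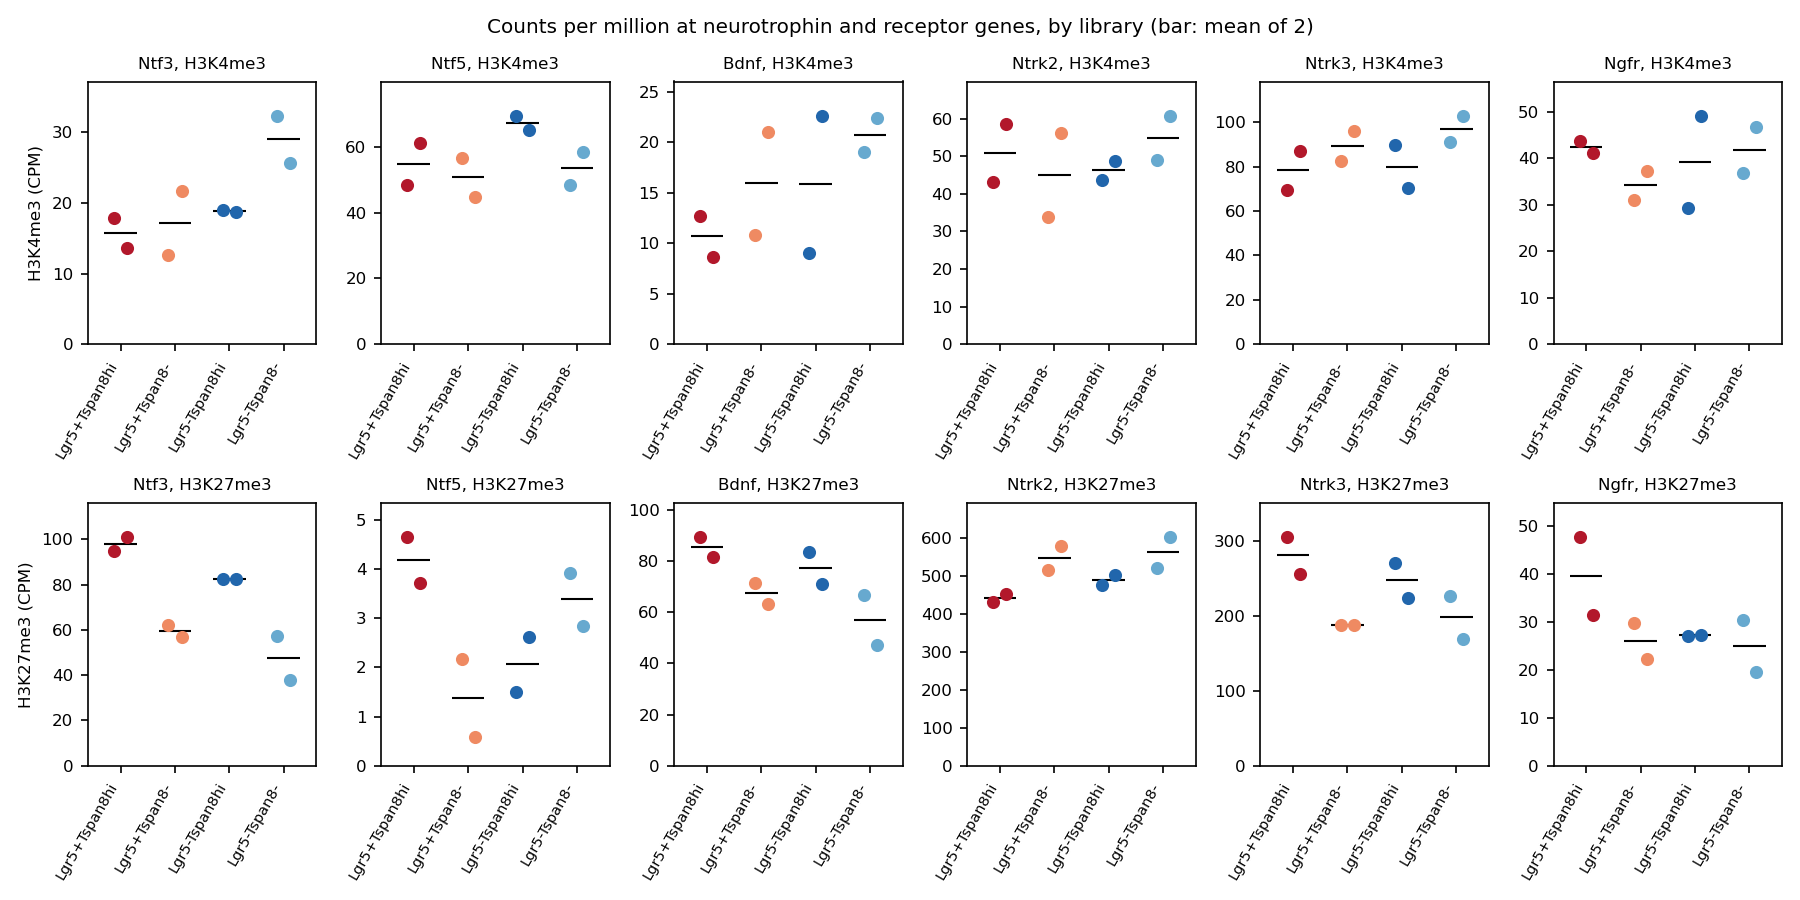
H3K4me3 (upper row) and H3K27me3 (lower row) at the 6 genes, as CPM on a linear axis from 0. Each point is 1 library and each bar the mean of the 2 libraries of a subpopulation; the H3K27me3 levels of Ntf3 lie at 82.3 to 101 CPM in Tspan8hi and 37.9 to 62.4 CPM in Tspan8- libraries, and those of Ntrk2 lie the other way.

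Set side by side, 5 of the 6 genes had a positive H3K27me3 log2 difference with Tspan8 and 1 a negative one, where 52.7% of all genes kept were above 0. The median of the 6 was 0.42, beside 0.02 for all 22099 genes kept. Of the 5, Ntf5 had opposite directions in the Lgr5 states, 3.03-fold among Lgr5+ and 0.61-fold among Lgr5- libraries, on 3 to 28 reads per library. For 1 gene (Ntf3) the Tspan8hi libraries were all above and for 1 gene (Ntrk2) all below, where 2.67% and 3.54% of all genes kept had their groups apart in those directions. Of all genes kept, 0.335% passed edgeR's adjusted threshold of 0.05 in this comparison. The 6 differences kept their sign under all alternatives run, from 0.61 to 0.88 for Ntf3 and from -0.34 to -0.17 for Ntrk2. Across the 8 libraries the H3K27me3 log2 levels of Ntf3 had a Pearson r of 0.94 with Bdnf, 0.86 with Ntrk3 and 0.73 with Ngfr. The r was 0.26 with Ntf5 and -0.93 with Ntrk2. All points share libraries and depth, and these values include the Tspan8 difference of Ntf3 known when the group was proposed.

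The level of each mark placed the genes among the 25189 genes with a symbol and a length. Their medians were 27.8 CPM for H3K4me3 and 0.601 CPM per kb for H3K27me3. Ntrk3 stood highest of the 6 in H3K4me3, at a mean of 86.2 CPM and percentile 87.0, followed by Ntf5 at percentile 70.7, Ntrk2 at 65.4, Ngfr at 58.6, Ntf3 at 48.9 and Bdnf at 47.0. This order assumes that a window of the same length was counted for each gene. Per kb, H3K27me3 was highest at Ngfr and Ntrk2, both 1.56 CPM per kb and percentile 75.6, then Bdnf at 1.37, Ntf3 at 1.10, Ntf5 at 0.789 and Ntrk3 at 0.571 CPM per kb. Ntrk3 was thus the 1 gene below the H3K27me3 median, although its H3K27me3 level per gene, over 401.049 kb, was at percentile 96.8. Ntf5, Ntrk2 and Ngfr were above the median in both marks, as were 10.7% of all genes. For Ntf5 this rests on the division by 3.485 kb. Its H3K27me3 level per gene, a mean of 2.75 CPM on 3 to 28 reads per library, was at percentile 31.2.

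**Figure D2:**
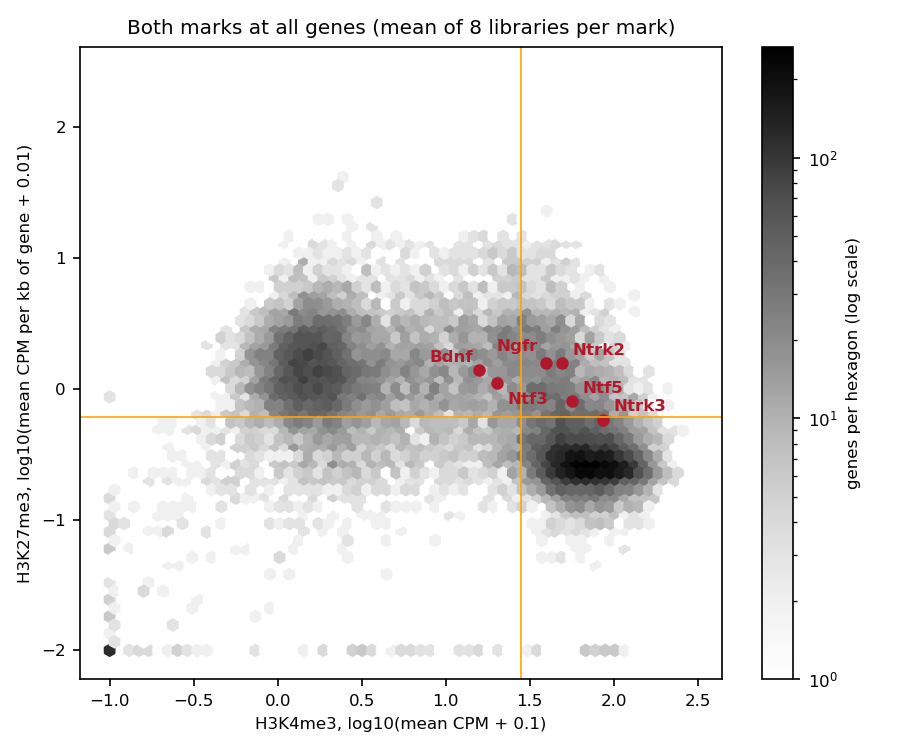
Mean H3K4me3 level, as log10(CPM + 0.1), against mean H3K27me3 level, as log10(CPM per kb of gene + 0.01), over 8 libraries per mark. Grey hexagons count all 25189 genes with a length, orange lines are the medians, red points are the 6 genes; 5 of the 6 lie above the H3K27me3 median and Ntrk3 just below it.

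The remaining comparisons were not used to choose the genes and were tested. Comparing Tspan8hi with Tspan8- cells for H3K4me3, none of the 6 genes passed, and 0.0473% of the 19009 genes kept did (edgeR's quasi-likelihood test, Benjamini-Hochberg adjustment). The log2 differences were -0.46 for Bdnf, -0.35 for Ntf3, -0.23 for Ntrk3, -0.02 for Ntrk2, 0.11 for Ngfr and 0.21 for Ntf5, with adjusted p from 0.866 to 0.995. The groups of all 6 overlapped, where 1.48% of genes kept had all Tspan8hi libraries above and 1.6% below. The 95% interval at Ntf3, from -0.92 to 0.22, left room for a change in either direction, and that at Ntrk3 ran from -0.50 to 0.04. The 2 genes whose H3K27me3 groups were apart, Ntf3 and Ntrk2, thus had no H3K4me3 call when both Lgr5 states were averaged. Among Lgr5- libraries alone, the Tspan8hi ones lay below the Tspan8- ones at both genes, 0.65-fold for Ntf3 and 0.84-fold for Ntrk2. Among Lgr5+ libraries they overlapped, at 0.92-fold and 1.13-fold. In the same Lgr5- comparison Ntrk3 also lay below, at 0.82-fold, and Ntf5 lay above, at 1.26-fold. These single-state differences, of 2 libraries against 2, were not tested. The share of all genes apart in this way was not counted.

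Between Lgr5+ and Lgr5- cells, none of the 6 genes passed for H3K4me3 (edgeR adjusted p from 0.971 to 1.00), where 0.0421% of all genes kept did. The log2 differences of the 6 genes were all below 0, where 50.8% of all genes kept were above 0. They ran from -0.53 for Ntf3 and -0.51 for Bdnf to -0.18 for Ntf5, -0.11 for Ngfr, -0.10 for Ntrk2 and -0.08 for Ntrk3. All groups overlapped, where 1.58% of genes kept had all Lgr5+ libraries above and 1.26% below. The sign was not stable for Ntrk3, at 0.01 once libraries were scaled by a loess curve against reads per kb, nor for Ntrk2, Ntrk3 and Ngfr when single libraries were left out. The Ntf3 means were 16.4 ± 4.16 CPM with Lgr5 and 23.9 ± 6.47 CPM without (SD, n = 4 each), and the 95% interval of the log2 difference ran from -1.09 to 0.04.

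For H3K27me3 the comparison of Lgr5+ with Lgr5- cells also gave no call among the 6 genes, where 0.0407% of all genes kept were called. The log2 difference was 0.30 for Ntf3 (95% interval 0.03 to 0.56, edgeR unadjusted p = 0.0292, adjusted p = 0.656). At an unadjusted p under 0.05 stood 1 of the 6 genes and 7.19% of all genes kept. Ngfr followed with 0.31, Bdnf with 0.20, Ntrk3 with 0.06, Ntrk2 with -0.09 and Ntf5 with -0.16, and the groups of every gene overlapped, where 2.11% of genes kept had all Lgr5+ libraries above and 1.51% below. The Ntf3 mean was 78.8 ± 22.3 CPM over the Lgr5+ libraries, with 65.0 ± 21.6 CPM over the Lgr5- ones (SD, n = 4 each).

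Whether the Tspan8 difference itself depended on Lgr5 was tested as an interaction, the difference in Lgr5+ minus that in Lgr5- cells. None of the 6 genes passed for either mark, against 0% of genes for H3K4me3 (0 of 19009 by edgeR, with 4.21% at an unadjusted p under 0.05, and 0 by DESeq2 and limma-voom) and 0.00905% for H3K27me3. For H3K27me3 the interaction was -0.10 for Ntf3 (log2, 95% interval -0.62 to 0.43) and -0.11 for Ntrk2 (-0.45 to 0.24). At Ntf5 it was 2.21 (0.18 to 4.24, edgeR unadjusted p = 0.0339, where 5.5% of genes kept were under 0.05, adjusted p = 0.880), on the 3 to 28 reads given above. For H3K4me3 the values lay between -0.21 for Ntf5 and 0.51 for Ntf3.

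**Figure D3:**
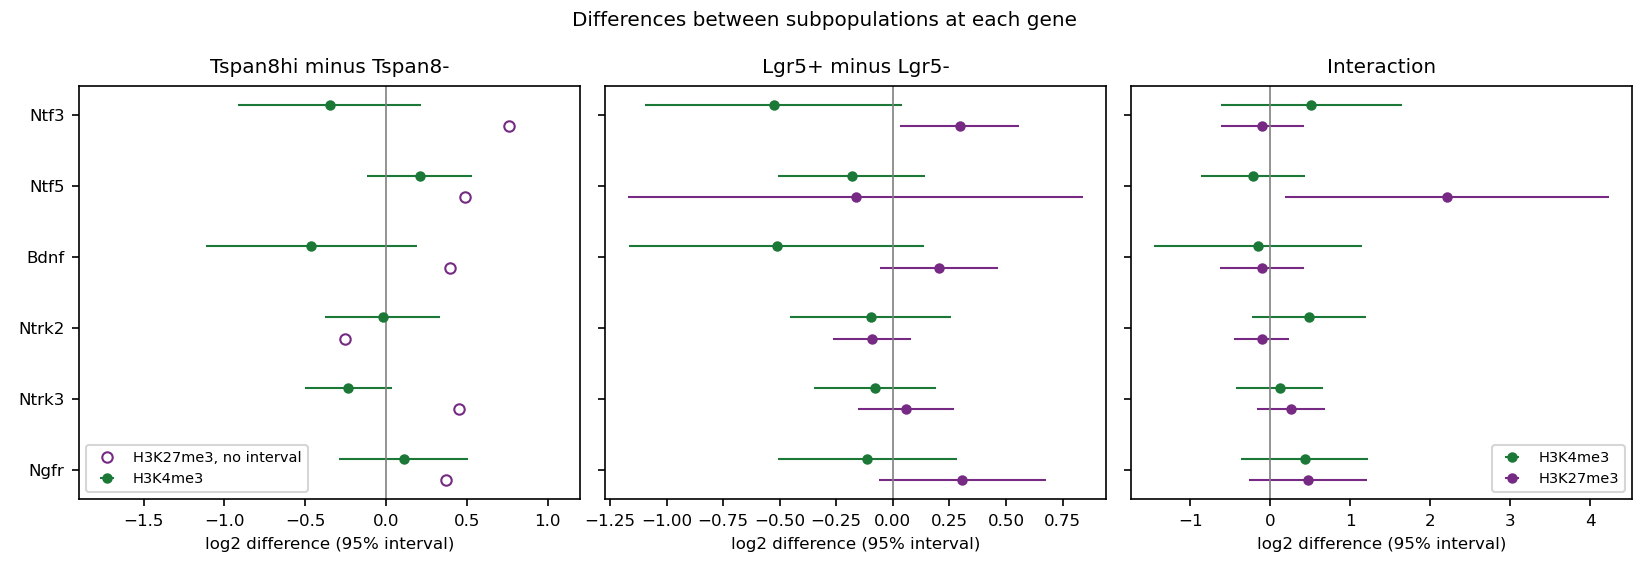
Log2 differences at the 6 genes with Tspan8 (left), with Lgr5 (middle) and their interaction (right), H3K4me3 in green and H3K27me3 in purple. Filled points carry 95% intervals from edgeR; open points show the H3K27me3 difference with Tspan8, 5 above 0 and Ntrk2 at -0.25, without an interval because the genes were chosen knowing that comparison.

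Among 42 other genes of neurotrophin signalling, 1 passed in 1 of the 6 comparisons, that of H3K27me3 with Tspan8, where 0.335% of all genes kept did. This was Sorcs1, a receptor of the VPS10 sortilin family (chr19:50143295-50679129, minus strand), with more H3K27me3 in Tspan8hi cells. Its H3K27me3 was 484 and 419 CPM in Lgr5+Tspan8hi, 384 and 343 CPM in Lgr5-Tspan8hi, 313 and 273 CPM in Lgr5+Tspan8-, and 334 and 233 CPM in Lgr5-Tspan8- libraries. The 4 Tspan8hi libraries lay above the rest. Their mean of 407 ± 60 CPM stood over 288 ± 44.6 CPM (SD, n = 4 each), a log2 difference of 0.49 ± 0.10 (SE, edgeR adjusted p = 0.0319). The list holding Sorcs1 was drawn up with earlier results of these data known. This is also the comparison on which the 6 genes were proposed, so the call is not independent of that choice. The call was kept under 12 of 17 alternatives and lost when any of 5 libraries was left out: the first Lgr5+Tspan8hi (adjusted p = 0.253), the first and second Lgr5+Tspan8- (0.123 and 0.278), the first Lgr5-Tspan8hi (0.118) and the second Lgr5-Tspan8- (0.1). The start of Sorcs1 lies 1724 bp from that of the overlapping antisense gene Gm26629, with which reads may be shared.

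H3K4me3 at Sorcs1 was lower on average in Tspan8hi cells, 42.6 ± 14.0 against 68.7 ± 22.9 CPM (SD, n = 4 each). The groups overlapped and the log2 difference of -0.71 ± 0.18 (SE) did not pass (edgeR adjusted p = 0.130). It passed under 3 of 17 alternatives, each leaving out 1 library: the first Lgr5+Tspan8hi (adjusted p = 0.0222), the first Lgr5+Tspan8- (0.00145) or the second Lgr5-Tspan8hi (0.0117).

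The other classes of the pathway gave no call. For H3K27me3 with Tspan8, 39 of the 42 genes were kept, 25 above 0 and 14 below, where 52.7% of all genes kept were above 0. The median log2 difference was 0.06 beside 0.02 for all genes. The highest was Fos, an early response transcription factor, at 0.81, and the lowest Bex3, a p75NTR adaptor, at -0.46, both at levels under 5 CPM. Of the 39 genes, 2 had all 4 Tspan8hi libraries below the Tspan8- ones, beside 3.54% of all genes kept, and neither passed; both were singled out after their values were seen. For Shc3, an adaptor of the Trk receptors, the H3K27me3 means were 251 ± 24.4 CPM in Tspan8hi and 306 ± 33.4 CPM in Tspan8- libraries (SD, n = 4 each), with a log2 difference of -0.28 (edgeR adjusted p = 0.179). For Sorcs3, a receptor of the VPS10 family, they were 760.1 ± 6.22 and 851 ± 31.4 CPM in Tspan8hi and Tspan8- (SD, n = 4), with a log2 difference of -0.16 (edgeR adjusted p = 0.352). For H3K4me3 with Tspan8, 21 of the 42 were above 0 and 21 below, where 49.6% of all genes kept were above 0. The median was -0.01, with values from -0.99 for the protease Mmp7 to 0.34 for the Trk adaptor Grb2. The Mmp7 value rests on 3 to 40 reads per library.

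With Lgr5, the pathway medians were 0.03 for H3K4me3 and -0.08 for H3K27me3, and no gene passed. The highest for H3K4me3 was 0.34 for Sorcs3, and the extremes for H3K27me3 were 1.54 for Fos and -0.50 for Grb2. For the interaction the lowest was -0.73 for the p75NTR adaptor Traf6 in H3K4me3, and the extremes were 1.45 for Egr2 and -1.72 for Fos in H3K27me3. The H3K27me3 values rest on only 0 to 19 reads per library for Fos and 7 to 38 for Egr2. The GDNF family, a separate family of neurotrophic factors with the receptor Ret and the Gfra co-receptors, had no call among 9 genes. Its median H3K27me3 difference with Tspan8 was -0.12, with 7 of 8 genes kept below 0, where 52.7% of all genes kept were above 0.

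**Figure D4:**
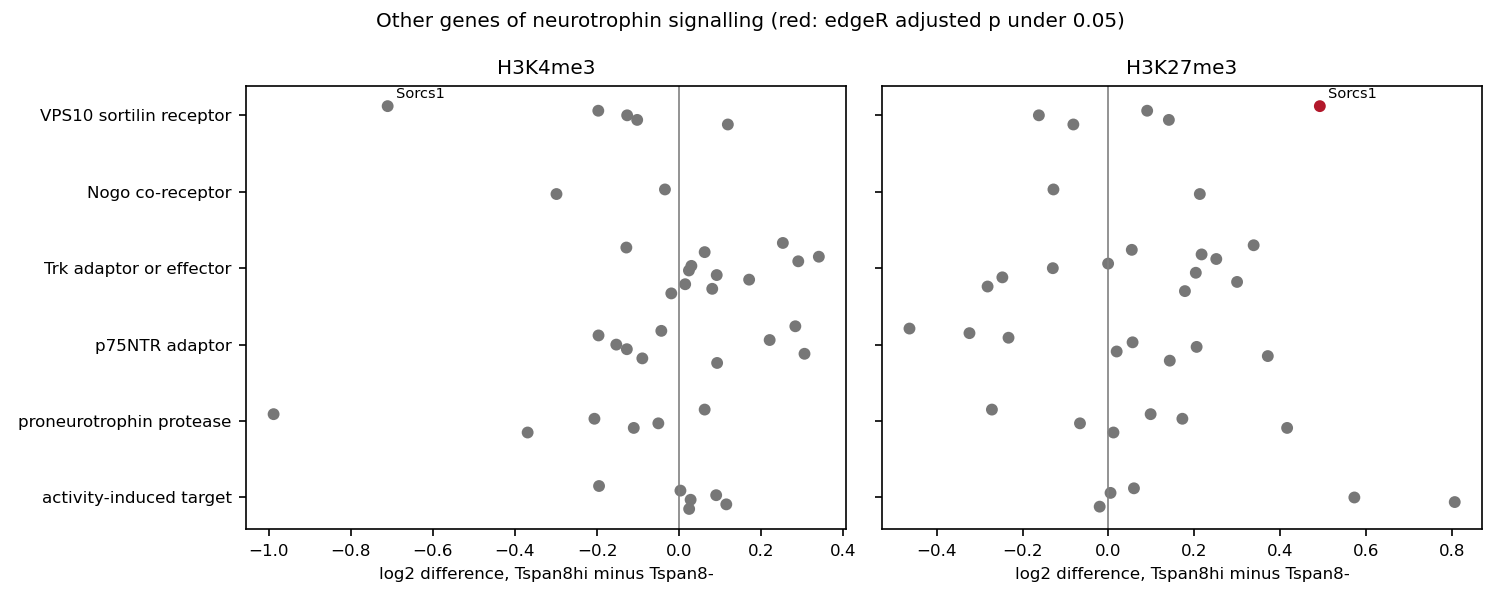
Log2 differences between Tspan8hi and Tspan8- cells for the VPS10 receptors, co-receptors, adaptors, proteases and induced targets of neurotrophin signalling, H3K4me3 left and H3K27me3 right. Each point is 1 gene; red marks the 1 gene past edgeR's adjusted threshold of 0.05, Sorcs1 in H3K27me3 at 0.49.

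Other genes with a like pattern across the 8 libraries of a mark were listed by Pearson's r of log2 CPM, as a description. For H3K27me3, Ntf3 was closest to Spsb4 (r = 0.99), Sh3d19 (0.98) and Ccnd2 (0.97), Bdnf to Bcas1 (0.99), Slc5a12 (0.98) and Fbn2 (0.98), and Ntrk2 to Ank1 (0.98), Cbfa2t3 (0.98) and Esrrb (0.98). Ntrk3 was closest to Cfap54 (0.99), Adam12 (0.98) and Ggt7 (0.98), Ngfr to Depdc1a (0.98), Ctnnd2 (0.98) and Cttnbp2 (0.97), and Ntf5 to Zmynd12 (0.95), Hpcal4 (0.94) and Epb41l4b (0.94). For H3K4me3 the closest were Irx2 for Ntf5 (0.96), Cerox1 for Bdnf (0.98), Slc8a3 for Ntrk3 (0.95) and Tbc1d2b for Ngfr (0.95). These are the highest of 10001 genes for H3K27me3 and 13489 for H3K4me3 over 8 libraries that share their depth. No pair of the 6 genes reached an r above 0.69 for H3K4me3, the value of Ntf3 with Bdnf.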

How the data were processed

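H3K4me3 and H3K27me3 were measured in 16 ChIP-seq libraries, 2 per mark and subpopulation. Per the labels' protocols, chromatin was sheared to 200 to 400 bp. The deposited values are raw counts per Entrez gene, which the authors made on the mm10 build with featureCounts, per the submitters' processing notes. Neither aligner nor counted region is given in the sources used here. The 8 input samples were not used, so levels are not relative to input. Of 27080 identifiers, 25189 matched a symbol in the RefSeq annotation.

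For each mark, genes passing filterByExpr (19009 and 22099) were fitted with edgeR 4.0.16 (TMM scaling, robust quasi-likelihood test, 1 mean per subpopulation, all 8 libraries, 4 residual degrees of freedom). Tests were adjusted by the Benjamini-Hochberg method over all genes kept, with a threshold of 0.05. The 6 genes were tested in 5 comparisons, 30 tests in all, and all 6 passed the filter for both marks. The biological coefficient of variation was 16% for H3K4me3 and 16.8% for H3K27me3. Alternatives were DESeq2 1.42.0, limma-voom 3.58.1, other scalings and filters, a replicate block and leaving out each library. The script was tested on simulated data. Replicates differed beyond sampling noise (chi-square per degree of freedom 3.07 to 5.91). Members and gene lists were chosen with earlier results of these data known. Named genes were the 6, Lgr5 and Tspan8, listed genes past the threshold, the highest and lowest pathway gene per comparison, and the 3 genes most like each of the 6 per mark, among those with a mean of at least 10 CPM. A few genes that this rule takes are not reported here.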

Additional observations from a re-analysis of the deposited data

How the results depend on the processing

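None of 505 values of the 6 genes under alternatives in the 5 tested comparisons passed the threshold (smallest adjusted p 0.102), and 29 had another sign than reported. Outside the fits that leave out a library, these were Ntrk2 for H3K4me3 with Tspan8 (0.03 by limma-voom, 0.04 with a loess curve against reads per kb, chosen after seeing the data), Ntrk3 for H3K4me3 with Lgr5 (0.01, same curve) and Bdnf for the H3K4me3 interaction (0.12 by limma-voom). Leaving out each library in turn gave log2 ranges with a change of sign as follows. For H3K4me3 with Tspan8 they were -0.20 to 0.16 for Ntrk2 and -0.10 to 0.27 for Ngfr, and with Lgr5 -0.28 to 0.08 for Ntrk2, -0.17 to 0.01 for Ntrk3 and -0.28 to 0.10 for Ngfr. For the H3K4me3 interaction they were -0.40 to 0.00 for Ntf5, -0.63 to 0.67 for Bdnf and -0.06 to 0.32 for Ntrk3. For H3K27me3 they were -0.76 to 0.17 for Ntf5 and -0.02 to 0.15 for Ntrk3 with Lgr5, and -0.33 to 0.19 for Ntf3, -0.28 to 0.15 for Bdnf and -0.21 to 0.07 for Ntrk2 in the interaction. The H3K27me3 difference of Ntf5 with Tspan8 ranged from 0.15 to 1.07. For H3K27me3, Ntf5 was not kept at a mean of at least 5 CPM, and DESeq2 gave no adjusted p for Ntf5 in 2 comparisons and for Ngfr in 1.

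Counts of genes called over the whole genome moved more, and the cause was not tested. For H3K27me3 with Tspan8, 74 genes were called (21 higher, 53 lower), against 476 by DESeq2, 340 by limma-voom, 135 with the curve against reads per kb, 312 without a filter and 681 with a replicate block. The split was 49 higher and 33 lower with a loess curve against mean abundance, and 36 and 28 with library totals. For H3K27me3 with Lgr5, 9 were called, against 71 by DESeq2, 53 by limma-voom, 14 with the curve against abundance, 50 with that against reads per kb, 42 without a filter and 80 with the block. For the H3K27me3 interaction 2 were called, against 12 by DESeq2, 15 without a filter and 13 with the block. For H3K4me3 with Tspan8 9 were called, against 17 by limma-voom, and with Lgr5 8, against 5 by DESeq2 and 4 with the curve against reads per kb. Without single libraries the counts ranged from 1 to 105, 1 to 13 and 0 to 15 for H3K4me3 (Tspan8, Lgr5, interaction) and from 13 to 1230, 3 to 160 and 0 to 109 for H3K27me3. Over all genes, libraries with the same replicate number deviated together only weakly (correlations -0.032 to 0.14 for H3K4me3, -0.01 to 0.12 for H3K27me3). The main fit did not treat the numbers as pairs, although the block raised the H3K27me3 calls as given above. At Bdnf and Sorcs1 the first H3K27me3 library was above the second in every subpopulation, and at Ntrk2 the second was above the first. At Ntf3, Ntf5 and Ngfr this order differed between subpopulations. The part of the replicate number in the results was not tested. Depth limited Ntf5 most, with 3 to 28 H3K27me3 reads per library.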
